A study of Bos taurus with 18 samples.

Results

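The histone genes of the bovine blastocyst array were followed across both sexes and 3 sires. Members were the probe sets whose single gene symbol in the platform annotation names a histone gene by the usual prefixes (H1-, H2AC, H2AZ, H2BC, H3-, H4C and their older forms), and 13 of 24016 probe sets met that rule. They stand for 10 of the 9155 genes with a probe set of their own, and all 10 matched a gene of the assembly ARS-UCD2.0, where 85 genes carry such symbols. By symbol, 7 probe sets of 6 genes were replication-dependent histones (H4C2, H2BC19, H2AC20, H2AC6, H1-2 and 2 probe sets of H2AC25) and 6 probe sets of 4 genes were variant histones (H3-3B, H2AZ1, and 2 probe sets each of H3-3A and H2AZ2). Where a gene has a pair of probe sets, "a" marks the one with the higher mean value. None of the 10 genes lies on the X or Y chromosome.

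Blastocysts of mixed breed were made in vitro with sex-sorted semen and frozen on day 7 after insemination. Each of 18 arrays held RNA of 60 pooled blastocysts of 1 sex and 1 bull, with 3 arrays in each of the 6 groups: female and male embryos of bull 1, of bull 2 and of bull 3. Values are the deposited log2 expression values, and a difference of 1 on this scale is a doubling of signal. Each bull is a single sire, and pools hold trophectoderm and inner cell mass together. Separate fertilisations behind the 3 pools of a group are not stated in the labels, so p-values refer to the spread among pools alone, which may be technical. Female and male embryos came from differently sorted semen. A sex difference therefore cannot be told apart from one of the sorted semen or of the fertilisations made with it. A lower value in such pooled RNA does not separate fewer cells making a transcript from less of it per cell. XIST, the RNA of the inactive X chromosome, lay between 8.87 and 9.57 on the 9 female arrays and between 5.93 and 7.28 on the 9 male arrays.

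Histones are the proteins around which DNA is wound: the core histones H2A, H2B, H3 and H4 form the nucleosome, and the linker histone H1 binds where DNA enters and leaves it. Replication-dependent histone genes lie in clusters, are read mainly in S phase, and give mRNAs that end in a stem-loop rather than in a poly(A) tail. Variant histones such as H3.3 (from H3-3A and H3-3B) and H2A.Z (from H2AZ1 and H2AZ2) come from single genes outside the clusters, have polyadenylated mRNAs and are made throughout the cell cycle. The labelled RNA came from a linear amplification kit, and kits of this type prime at poly(A). How much of a replication-dependent mRNA such a protocol captures was not measured here. Members of the clustered families also resemble each other closely in sequence, so a probe set may read near-identical copies, and the gene names of the replication-dependent probe sets are uncertain to that extent.

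The replication-dependent histones held every called sex difference among the members. H4C2, H2BC19 and H2AC20, each coding for a different core histone, were lower in female than in male blastocysts. In limma's test over all probe sets with Benjamini-Hochberg adjustment, 3 of 7 replication-dependent probe sets were lower in females and 0 were higher, while 15.6% of all 24016 probe sets were called, 7.47% lower and 8.12% higher in females. Of the 6 variant probe sets, 0 were called in either direction, and all 6 differences were positive (higher in females). Over all probe sets, 10020 of 24016 differences were positive. The 6 stand for 4 genes, so they are not 6 separate observations. Among the 6 the smallest adjusted p was 0.0743, and 4 had an unadjusted p under 0.05, as did 26.5% of all probe sets. The median difference, female minus male, was -0.12 log2 over the replication-dependent probe sets and 0.14 over the variant ones, against -0.03 over all probe sets. The first of these medians is the value of H1-2. In fits without 1 array this class median ranged from -0.18 to -0.07. It was -0.08 without male bull 2 replicate 3 and -0.07 without male bull 1 replicate 1. In the latter fit it is the value of H2AC25 probe set b, and H1-2 itself was at -0.04. The difference between the classes was not tested, because members and classes were chosen with earlier results of these data known.

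H4C2 codes for histone H4, the partner of H3 at the core of the nucleosome. In females it had log2 values of 4.38, 4.46 and 3.75 in bull 1, of 4.49, 4.74 and 4.38 in bull 2, and of 4.52, 4.56 and 4.41 in bull 3. In males it had 5.25, 5.26 and 4.83 in bull 1, 5.48, 5.10 and 5.19 in bull 2, and 4.95, 5.02 and 5.60 in bull 3. All 9 male arrays lay above all 9 female arrays, by a gap of 0.09 between the closest ones, which is the case for 0.937% of all probe sets, the reverse being true of 1.99%. Female arrays averaged 4.41 ± 0.27 and male arrays 5.19 ± 0.25 (SD over 9 arrays of each sex), a difference of -0.78 log2 (SE 0.11, adjusted p = 5.89e-05). Its mean over all arrays was at percentile 42.9 of all probe sets' means.

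H2BC19 codes for a histone H2B. Its values in females were 5.82, 5.67 and 5.19 in bull 1, 6.22, 6.50 and 5.84 in bull 2, and 6.16, 5.70 and 5.97 in bull 3. In males they were 6.99, 5.96 and 6.35 in bull 1, 6.90, 6.73 and 7.00 in bull 2, and 6.72, 6.46 and 6.68 in bull 3. Across bulls the sexes overlapped, with 6 of 9 male arrays above every female array. Within each of the 3 bulls every male array exceeded every female array, as it did for H4C2, a pattern that 2.51% of all probe sets show. The means were 5.90 ± 0.38 in females and 6.64 ± 0.34 in males (n = 9 each), a difference of -0.75 log2 (SE 0.13, adjusted p = 0.00036).

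H2AC20 codes for a histone H2A and lies in the same cluster as H2BC19, with 4 protein-coding genes between them in ARS-UCD2.0, 3 of which have histone symbols. Females had 9.46, 9.69 and 9.42 in bull 1, 9.81, 9.91 and 9.59 in bull 2, and 9.85, 9.72 and 9.74 in bull 3. Males had 10.25, 10.15 and 9.51 in bull 1, 10.20, 9.93 and 10.09 in bull 2, and 9.89, 9.68 and 10.32 in bull 3. The sexes overlapped in bulls 1 and 3: a male array at 9.51 was below the highest female of bull 1, and a male array at 9.68 was below every female of bull 3. The difference was -0.31 log2 (SE 0.10, adjusted p = 0.0378), smaller than that of H4C2 and H2BC19, with means of 9.69 ± 0.17 in females and 10.002 ± 0.27 in males. The call lay near the threshold: it was lost in 11 of 18 fits without 1 array (adjusted p = 0.0553 to 0.0823, differences of -0.32 to -0.25 log2) and without 4 arrays of wide spread (-0.19 log2, adjusted p = 0.246).

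**Figure D1:**
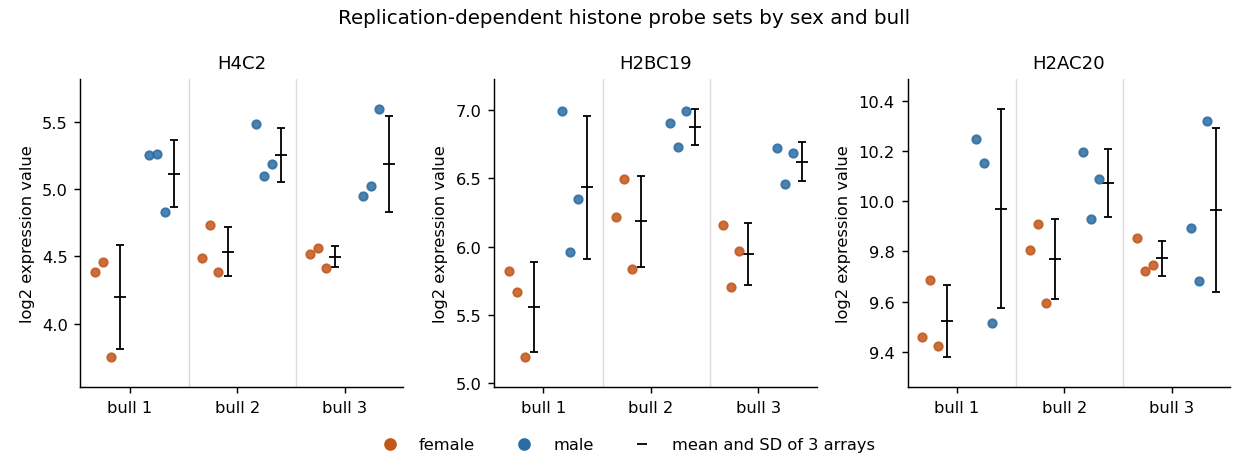
Log2 expression values (vertical axes, a separate scale per panel) of the probe sets of H4C2, H2BC19 and H2AC20 on each array, by bull (horizontal axis), females in orange to the left of males in blue; black bars give the mean and SD of 3 arrays. For H4C2 no female array exceeds 4.74 and no male array lies below 4.83, whereas the H2AC20 panel shows male arrays at 9.51 and 9.68 within the range of the females.

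The other 4 replication-dependent probe sets did not pass the test. H1-2, a linker histone, had values from 5.20 to 5.73 (median 5.53) in females and from 5.14 to 6.02 (median 5.64) in males, a difference of -0.12 log2 with a 95% confidence interval of -0.34 to 0.10. H1-2, H2AC6 and H4C2 lie in a single cluster, with 4 protein-coding genes between H2AC6 and H1-2 and another 4 between H1-2 and H4C2. H2AC6, a histone H2A gene, stood between 2.79 and 3.13 (median 2.97) in females and between 2.64 and 3.34 (median 3.00) in males, near the dim end of the array (percentile 12.4 of all probe sets' means). Its interval of -0.21 to 0.11 log2 includes 0.

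H2AC25, a histone H2A gene outside the large clusters, is read by a pair of probe sets. Probe set a had 4.67 to 5.64 (median 5.01) in females and 4.86 to 5.15 (median 5.01) in males, and probe set b, at percentile 4.33 of all means, had 2.48 to 2.70 (median 2.59) and 2.44 to 2.78 (median 2.62). Their differences were 0.06 log2 (interval -0.13 to 0.24) and -0.03 log2 (interval -0.16 to 0.09). Neither separated the sexes, and the sign of each was not the same in all bulls.

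**Figure D2:**
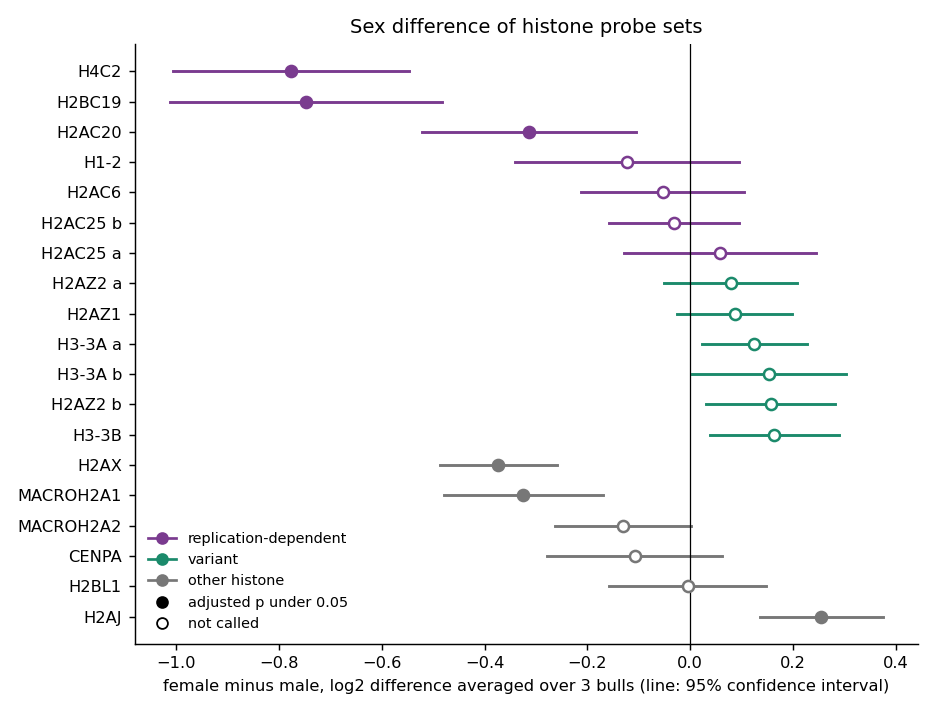
Sex difference of each histone probe set, female minus male in log2 averaged over 3 bulls (horizontal axis), with the 95% confidence interval as a line; filled points had an adjusted p under 0.05. H4C2 (-0.78), H2BC19 (-0.75) and H2AC20 (-0.31) lie to the left of 0 and all 6 variant probe sets to the right (0.08 to 0.16), none of these called.

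No variant histone among the members, all of them H3.3 or H2A.Z genes, passed the test. Female means were above male means on all 6 of their probe sets. H3.3 replaces the replication-dependent H3 outside S phase, and in mouse embryos it is the histone laid onto the sperm genome after fertilisation. H3-3B, which codes for H3.3, had 12.34, 12.25 and 12.53 in females of bull 1, 12.33, 12.38 and 12.31 in bull 2, and 12.21, 12.30 and 12.37 in bull 3. In males it had 12.26, 12.58 and 12.21 in bull 1, 12.08, 12.05 and 12.16 in bull 2, and 12.07, 12.14 and 12.01 in bull 3. Every female array exceeded every male array in bulls 2 and 3, whereas in bull 1 the male replicate 2, at 12.58, was the highest of all 18 arrays. The difference was 0.16 log2 (SE 0.06, interval 0.04 to 0.29, adjusted p = 0.0743), and without that male array it was 0.20 log2 (adjusted p = 0.0108).

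H3-3A, the other gene for H3.3, gave 12.43 to 12.61 (median 12.51) in females and 12.23 to 12.57 (median 12.40) in males with probe set a, and 12.13 to 12.61 (median 12.26) and 11.94 to 12.52 (median 12.11) with probe set b. On both probe sets all 9 female arrays lay above the male median, though the sexes overlapped. The same held for H3-3B and for both H2AZ2 probe sets, and how many of all probe sets show it was not computed. Probe set a differed by 0.12 log2 (interval 0.02 to 0.23, adjusted p = 0.0999). For probe set b the difference was 0.15 log2 (interval 0.004 to 0.302, adjusted p = 0.174). Without male bull 1 replicate 2, probe set a differed by 0.15 log2 (adjusted p = 0.028), while probe set b was not called under any alternative tried (adjusted p from 0.0504 to 0.522). The name of probe set a marks it as one that may match several transcripts.

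H2A.Z is a variant of H2A found at promoters and needed for early development in mouse. H2AZ1 had 12.64 to 12.90 (median 12.70) in females and 12.50 to 12.78 (median 12.67) in males, a difference of 0.09 log2 (interval -0.03 to 0.20, adjusted p = 0.331). H2AZ2, the second gene of the family, gave 11.16 to 11.40 (median 11.25) in females and 10.74 to 11.42 (median 11.15) in males with probe set a, and 8.20 to 8.48 (median 8.35) and 8.03 to 8.38 (median 8.19) with probe set b. Probe set b differed by 0.16 log2 (interval 0.03 to 0.28, adjusted p = 0.089) and probe set a by 0.08 log2 (interval -0.05 to 0.21, adjusted p = 0.469). Probe set b passed without male bull 2 replicate 3 (adjusted p = 0.0428) or without male bull 3 replicate 3 (adjusted p = 0.0382). The highest upper end among the intervals of the 6 variant probe sets was 0.302 log2.

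**Figure D3:**
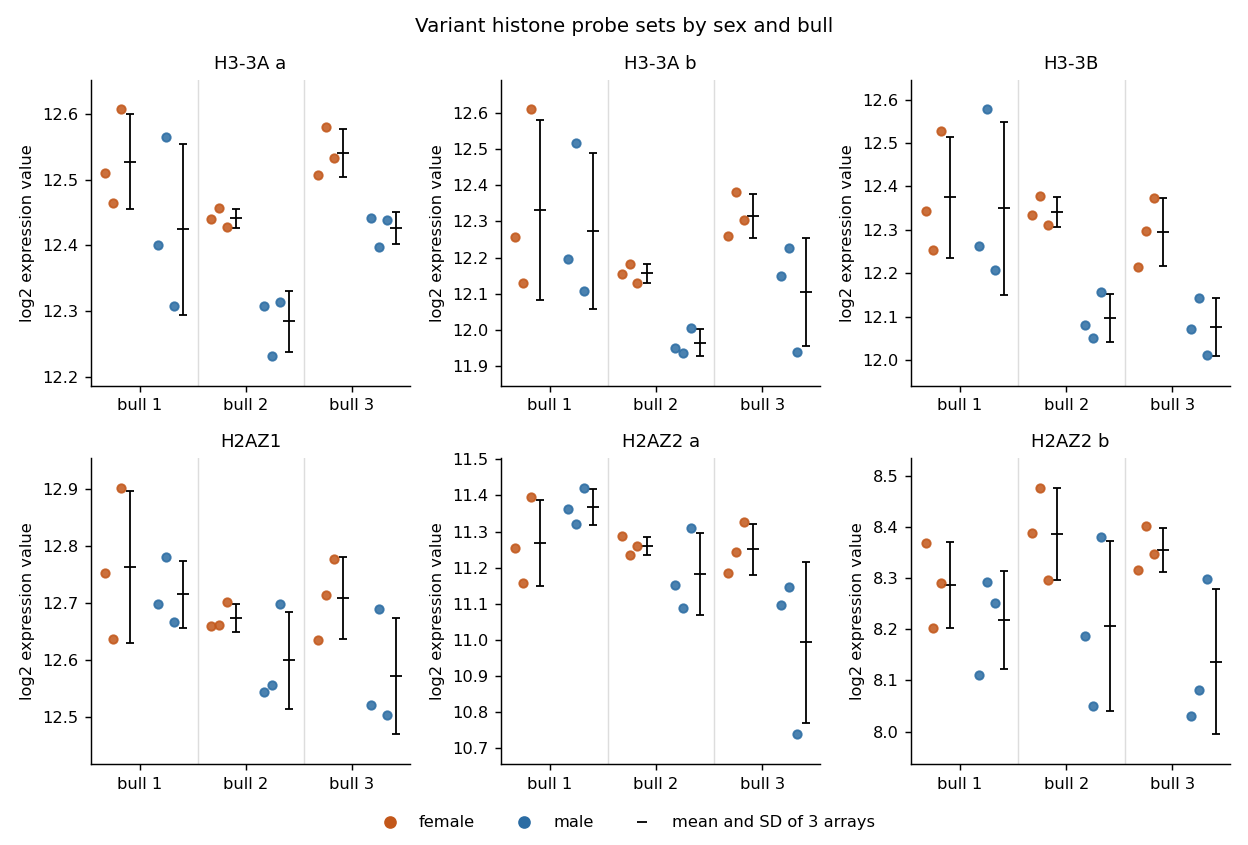
Log2 expression values (vertical axes, a separate scale per panel) of the 6 variant histone probe sets on each array, by bull (horizontal axis), females in orange to the left of males in blue; black bars give the mean and SD of 3 arrays. In bulls 2 and 3 the H3-3B females (12.21 to 12.38) sit above the males (12.01 to 12.16), while in bull 1 one male array reaches 12.58.

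Within single bulls, H4C2 was lower in females in each of the 3, by -0.92, -0.72 and -0.69 log2 in bulls 1, 2 and 3 (adjusted p = 0.00796, 0.0429 and 0.0458). H2BC19 differed by -0.87, -0.69 and -0.68 log2, and was called in bull 1 (adjusted p = 0.028) but not in bull 2 (0.108) or bull 3 (0.0944). H2AC20 gave -0.45, -0.30 and -0.19 log2, none of them called. Replication-dependent probe sets lower in females thus numbered 2, 1 and 1 in the 3 bulls, against 1.46%, 0.558% and 1.53% of all probe sets (called in either direction were 4.2%, 3.13% and 4.18%). In fits without 1 array, no call was left in bull 1 in 1 of 18 (that without female replicate 3 of bull 1), in bull 2 in 9 of 18 and in bull 3 in 10 of 18. In females minus males of bulls 1, 2 and 3, H3-3B gave 0.03, 0.25 and 0.22 log2 and H2AZ2 probe set a gave -0.10, 0.08 and 0.26. No variant probe set among the members was called in any bull.

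No member's sex difference was called as differing between bulls in limma's interaction test, which called 0% of all 24016 probe sets, 656 of which had an unadjusted p under 0.05. Among the 13 members 0 had one, and the smallest unadjusted p was 0.0884, for H2AZ2 probe set a. For that probe set the males of bull 3 had 11.10, 11.15 and 10.74. The signs were the same in all 3 bulls for 4 of 7 replication-dependent probe sets, all lower in females (28% of all probe sets), and for 5 of 6 variant probe sets, all higher in females (20.1% of all).

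**Figure D4:**
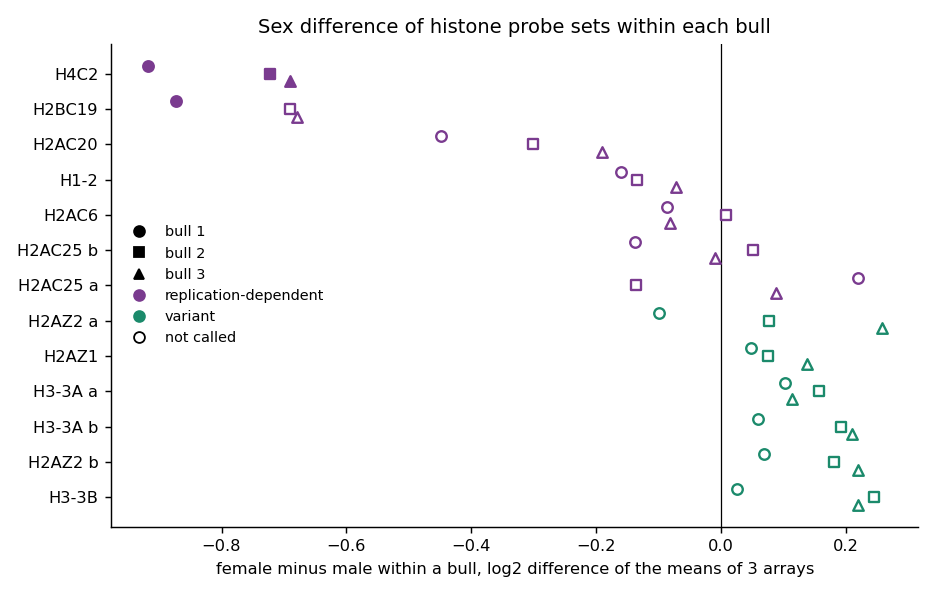
Sex difference of each member within bull 1 (circles), bull 2 (squares) and bull 3 (triangles), female minus male in log2 between means of 3 arrays (horizontal axis); filled symbols had an adjusted p under 0.05. H4C2 is filled in all 3 bulls (-0.92, -0.72 and -0.69) and H2BC19 in bull 1 (-0.87), and the other symbols are open.

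Between bulls, 0 of 13 members were called in any of the 3 comparisons, against 1.52%, 3.53% and 3.74% of all probe sets for bull 2 against bull 1, bull 3 against bull 1 and bull 3 against bull 2. At an unadjusted p under 0.05 there were 4, 2 and 1 members, against 17.8%, 19.1% and 18.5% of all probe sets. The differences of H2BC19 and H1-2 in bull 2 against bull 1 were 0.53 log2 (interval 0.21 to 0.86, adjusted p = 0.087) and 0.37 log2 (interval 0.10 to 0.63, adjusted p = 0.144). H2BC19 averaged 6.53 ± 0.44 in bull 2 and 5.997 ± 0.62 in bull 1 (SD, n = 6 arrays each, both sexes together). Without male bull 1 replicate 1, which had 6.99, H2BC19 and H1-2 were both called higher in bull 2, and without female bull 1 replicate 1, H2AC25 probe set a was called lower in bull 2. With the mean of the 3 arrays per sex and bull as the unit, the difference of H2BC19 was again 0.53 log2. That fit holds a single value per sex and bull, so it has no measure of the spread between bulls. A bull cannot be told apart from a production or scan batch that its arrays may share.

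Under names that the rule does not take in, the array measures 6 other histone genes, and 3 of these 6 differed by sex, against 15.6% of all probe sets. Some of them are variants too but stand outside the variant class counted above. Of their 6 differences 5 were negative, as were 13996 of 24016 over all probe sets. H2AX, the H2A variant that is phosphorylated at DNA breaks and whose gene can give both stem-loop and polyadenylated mRNA, had 9.86 to 10.19 (median 10.05) in females and 10.20 to 10.61 (median 10.39) in males. Its sexes did not overlap, although the gap was only 0.02, and it was lower in females by -0.37 log2 (SE 0.05, adjusted p = 8.68e-05), with -0.35, -0.43 and -0.33 in bulls 1, 2 and 3. MACROH2A1, a variant with a large extra domain that is enriched on the inactive X chromosome, had 7.06 ± 0.12 in females and 7.39 ± 0.23 in males (-0.32 log2, adjusted p = 0.0045). H2AJ, a polyadenylated H2A variant, had 9.22 ± 0.15 in females and 8.96 ± 0.14 in males (0.25 log2, adjusted p = 0.004). MACROH2A2, the centromeric CENPA and H2BL1 gave -0.13, -0.11 and -0.01 log2 and were not called. Without bull 3 MACROH2A1 and H2AJ differed by -0.26 and 0.26 log2 and were no longer called (adjusted p = 0.0888 and 0.0501).

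Genes of histone mRNA synthesis and processing were taken from a list chosen by function, with the brightest probe set per gene. Of 18 measured genes, 3 were higher and 1 lower in females, against 11.5% higher and 9.31% lower among 9155 genes (20.8% in all), and the list's median was 0.01 log2 against -0.01 for all genes. SLBP, the protein that binds the stem-loop of replication-dependent histone mRNAs, averaged 10.77 ± 0.09 in females and 10.48 ± 0.12 in males (0.29 log2, SE 0.05, adjusted p = 0.000817). ERI1, an exonuclease that trims that stem-loop and helps to degrade the mRNA, averaged 8.32 ± 0.12 in females and 7.998 ± 0.14 in males (0.32 log2, adjusted p = 0.00146). CSTF2, a cleavage factor whose gene is X-linked, was higher in females by 0.72 log2 (adjusted p = 2.66e-07), and the poly(A) polymerase PAPOLA was lower by -0.24 log2 (adjusted p = 0.00761).

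Among 19 genes listed as histone chaperones and remodellers, 3 were higher and 2 lower in females, with a median of 0.01 log2. The shares among all genes were 11.5% higher and 9.31% lower. The list also holds the histone CENPA, described above. The X-linked RBBP7, which binds histone H4, differed by 0.41 log2 (adjusted p = 8.22e-06) and UBN1, of the complex that deposits H3.3, by 0.25 log2 (adjusted p = 0.003). ANP32E, which removes H2A.Z from chromatin, differed by -0.33 log2 (adjusted p = 0.00032), and IPO4, an importin that carries histones H3 and H4, by -0.37 log2 (adjusted p = 0.000628). ASF1B, a chaperone of H3 and H4, was the remaining called gene, higher in females by 0.20 log2 (adjusted p = 0.0126).

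Of 24 S phase genes, 1 was higher and 3 were lower in females, with a median of -0.05 log2. Among all 9155 genes 11.5% were higher and 9.31% lower (20.8% in all), with a median of -0.01 log2. The called genes were POLA1, the X-linked catalytic subunit of DNA polymerase alpha (0.32 log2, adjusted p = 0.000336), and the replication genes CDC6 (-0.30, adjusted p = 0.0013), RFC2 (-0.27, adjusted p = 0.00208) and MCM7 (-0.19, adjusted p = 0.0153). These lists are described by their counts and medians.

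Array by array, after each group's mean was removed, the member most like H4C2 was H2AC20 (Pearson r = 0.78, Spearman rho = 0.83 over 18 arrays), followed by H2BC19 (0.43 and 0.43) and H2AZ2 probe set b (0.35 and 0.33). Without the 2 arrays whose H4C2 value deviated most, female bull 1 replicate 3 and male bull 3 replicate 3, the r of these was 0.79, 0.34 and 0.25. H2AC20 came first by each measure, but the order after it did not hold: by rho H2AC6 (0.36) stood above H2AZ2 probe set b, and without those 2 arrays H2AC6 (r = 0.47) and H3-3A probe set a (0.35) stood above H2BC19. H3-3B and H3-3A probe set b had r = 0.91 (rho = 0.92), and H4C2 and H2AZ2 probe set a had r = -0.74 (rho = -0.74). These values describe 18 arrays that share RNA quality and signal scale within each array.

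An index of RNA integrity, the 5′ minus 3′ difference in log2 averaged over the array's 3 control transcripts, moved with several variant histone probe sets across arrays. It averaged -0.35 ± 0.25 in females and -0.35 ± 0.46 in males (SD, n = 9 each), with a range of -0.79 to 0.05 in females and -1.27 to 0.45 in males. Its deviations within groups had r = 0.82 (rho = 0.88) with those of H3-3B, 0.80 with H3-3A probe set b, 0.68 with H2AZ2 probe set a and 0.66 with H2AZ1, but -0.50 with H4C2, -0.51 with H2BC19 and -0.36 with H2AC20. Among the remaining members, r was 0.53 with H3-3A probe set a, 0.05 with H2AZ2 probe set b and -0.33 with H1-2. It was -0.02 and 0.11 with H2AC25 probe sets a and b, and -0.07 with H2AC6. Without the 2 arrays farthest out, male bull 1 replicate 2 and male bull 3 replicate 3, r was 0.80 for H3-3B and -0.55 for H4C2. With the index as a covariate, the sex difference of H4C2 was -0.78 log2 (adjusted p = 2.81e-05) and that of H3-3B was 0.16 log2 (adjusted p = 0.025). Since the index averaged nearly the same in both sexes, this covariate could hardly change a difference averaged over the bulls. Whether RNA quality has a part in the sex differences was not tested.

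**Figure D5:**
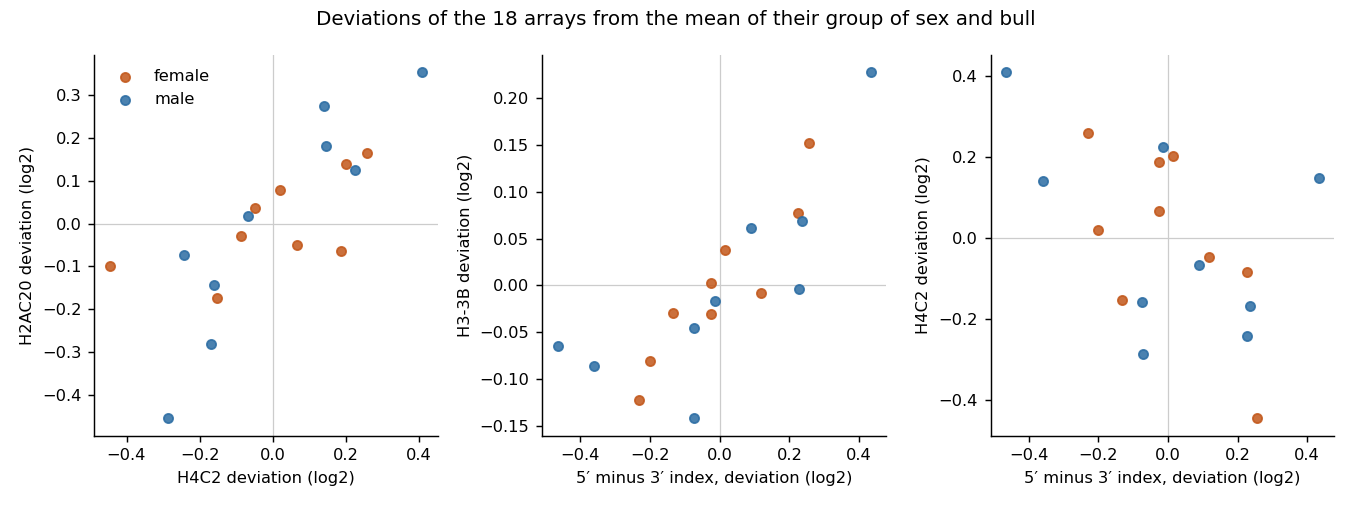
Deviations of the 18 arrays from the mean of their group of sex and bull, in log2, females in orange and males in blue: H2AC20 against H4C2 (left), H3-3B against the 5′ minus 3′ index (middle) and H4C2 against that index (right). Points rise together on the left (r = 0.78) and in the middle (r = 0.82) and run the opposite way on the right (r = -0.50).

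Markers of the cells a blastocyst pool could hold were called as follows, against 11.5% higher and 9.31% lower in females among all genes. Of 10 trophectoderm markers 2 were higher in females (SSLP1 by 0.75 and IFNT2 by 0.59 log2) and 3 were lower (PAG2 by -0.68, TFAP2A by -0.54 and PAG11 by -0.48). Summed log2 values of the 10 ranged from 78.8 to 83.9 in females and from 78.7 to 83.7 in males, sums in which opposite changes cancel. Of 4 inner cell mass markers SPP1 was higher in females by 0.56 log2 (sums of 37.9 to 39.1 in females and 37.1 to 38.3 in males), and of 6 primitive endoderm markers GATA4 was lower by -0.22 (53.9 to 54.7 in females and 53.7 to 54.8 in males). Of 9 sperm markers 2 were higher in females, the protamine PRM1 by 1.73 and the transition protein TNP1 by 0.88 log2. Both proteins act in the replacement of histones while sperm form. ODF2 and SPA17 were lower by -0.25 and -0.28 (sums of 46.2 to 48.3 in females and 44.4 to 47.5 in males). PRM1 averaged 6.65 ± 0.18 in females and 4.92 ± 0.39 in males, a larger difference than that of any histone probe set. Of 9 oocyte markers OOEP was higher in females by 0.36 log2 (40.8 to 49.9 in females and 40.9 to 45.1 in males). Of 14 cumulus and granulosa markers 3 were higher in females (CYP19A1 by 0.56, DCN by 0.33 and COL1A1 by 0.19 log2). In the same list 1 was lower, COL1A2 by -0.26 (sums of 73.2 to 80.1 in females and 71.0 to 79.6 in males). The part of any of these cells in the histone differences was not tested.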

How the data were processed

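Values are the authors' deposited log2 expression values per probe set. RMA and Partek 6.4 are listed in the submitters' processing notes with no roles given, and the scale was inferred from the range of the values. Precision is set by the number of arrays, since arrays have no read depth. Of 24128 probe sets, 112 controls were left out. GEO's platform annotation lists 1 gene for 13292, several for 86 and none for 10638. Gene numbers gave current symbols from ARS-UCD2.0. Means of the 6 groups were fitted to all 24016 probe sets with limma 3.58.1 in R 4.3.3 (lmFit, eBayes, 12 residual degrees of freedom), with Benjamini-Hochberg adjustment over all of them and a threshold of 0.05. Gene lists used the brightest probe set per gene. No 2 arrays were identical. Members, classes and lists were chosen with earlier results of these data known. The naming rule took members called in any comparison, the brightest of each class, the 4 genes of smallest p per functional list, XIST and the 3 members most like H4C2. The remaining members, ASF1B, the cell type markers and 6 histone genes outside the rule were named after their values were seen. Sample numbers of the titles did not pair the arrays. The fit was tested on simulated data. Figures were drawn with matplotlib 3.10.9.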

Additional observations from a re-analysis of the deposited data

Results flagged for a closer look

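There were 26 sets of 9 arrays of 1 sex (13 probe sets, each in females and in males). Of these, 4 held an array set apart from the rest by a gap larger than Dixon's critical value. That value is passed in about 1 in 20 separate normal samples. The 26 sets share the same 18 arrays and each mixes 3 bulls, so the count was not compared with chance. H4C2 stood at 3.75 in female bull 1 replicate 3, low among females, and without that array its sex difference remained called. H2AZ2 probe set a stood at 10.74 in male bull 3 replicate 3, low among males. Male bull 1 replicate 2 was high among males for both H3-3B (12.58) and H3-3A probe set b (12.52). These arrays are 3 of the 4 with a wide spread of deviations from each probe set's median, at 0.305, 0.349 and 0.335 log2, against 0.168 to 0.267 on the others, and the 2 male arrays also had the lowest and the highest 5′ minus 3′ index (-1.27 and 0.45).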

How the results depend on the processing

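The calls of H4C2 (where tested) and H2BC19 as lower in females held under every alternative tried, with differences of -0.82 to -0.57 log2 and of -0.83 to -0.65 log2; H4C2 is not among the brighter 50% of probe sets. The number of members called lower in females stayed at 2 or 3. H2AC20 lost its call in 16 of 32 alternatives, among them no moderation (-0.31 log2, adjusted p = 0.0842) and leaving out bull 1, 2 or 3 (-0.25, -0.32 and -0.37 log2; adjusted p = 0.149, 0.177 and 0.0623). Members called higher in females, 0 as reported, numbered 1 with quantile normalization, without moderation, without bull 1 and with the 5′ minus 3′ index as a covariate, 2 with an intensity trend and with 1 probe set per gene, and 3 among the brighter 50% of probe sets, with array weights and without the 4 arrays of wide spread. Leaving out single arrays gave 0 to 2. They were H3-3B, H3-3A probe set a and H2AZ2 probe set b. Within bull 1, the 2 members called lower in females became 1 among the brighter 50%, without moderation and without bull 2 or bull 3, 3 with array weights, and 0 to 2 without 1 array, which also gave 0 to 1 higher in females. Within bull 2 the 1 call became 0 with quantile normalization, the brighter 50%, no moderation, the replicate block and without bull 3, 2 with array weights and without bull 1, and 0 to 1 without 1 array. Within bull 3 the 1 call became 0 among the brighter 50%, without moderation, without bull 2, with the replicate block and with the index, 2 without bull 1 and with array weights (and 1 higher in females), and 0 to 2 without 1 array. For bull 2 against bull 1, leaving out single arrays gave 0 to 2 higher and 0 to 1 lower. The median of the replication-dependent probe sets was -0.31 log2 among the brighter 50%, where fewer of them are left, -0.24 with array weights, -0.22 with 1 probe set per gene and -0.19 without the 4 arrays, and the S phase list had 2 genes higher in females without the 4 arrays. The sample number as a replicate block changed no sex call over the 3 bulls; 2 of 9 same-numbered pairs of the same bull had a correlation of deviations above 0.1 (median -0.04). The 4 arrays of wide spread, the index, array weights for the median, and the leave-out of bulls within a bull were chosen after seeing the data. The cause of these changes was not tested. Background correction could not be varied on summarised values.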
